A study of Mus musculus with 15 samples.

Results

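The 10 genes described here encode proteins that fast-twitch skeletal muscle fibres use to contract and to handle calcium. They were taken from the count table by symbol, with the myosin heavy chains left out: Mylpf and Myl1 (myosin light chains), Tnnt3, Tnni2 and Tnnc2 (troponin subunits), Tpm1 (tropomyosin), Actn3 (alpha-actinin of the Z-disc), Atp2a1 (calcium pump), Casq1 (calsequestrin) and Pvalb (parvalbumin). All 10 were among the 22798 gene symbols of the table, and all 10 passed the filter on low counts that left 17975 genes for testing. The study sequenced total RNA of skeletal muscle from C57BL/6 mice aged 12 months, which were on a normal diet and had been without food overnight. There were 15 libraries in 3 groups: 6 from sedentary wild-type mice, 6 from exercise mice and 3 labelled CD47-KO, for mice lacking CD47, a surface protein that inhibits phagocytosis. Which muscle was taken, the genotype of the exercise mice, the exercise protocol and the design of the CD47 allele are not given in the sources used here. The labels number the libraries but do not say that each came from a separate animal, so the p-values rest on the variation among libraries, part of which may be technical.

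In a fast fibre, a nerve impulse opens calcium release channels of the sarcoplasmic reticulum, where calsequestrin stores calcium. Calcium then binds troponin C, which shifts tropomyosin on the thin filament and lets myosin heads attach. The light chains stabilise the lever arm of myosin, the calcium pump returns calcium to the store, and parvalbumin buffers it in the cytosol, so that the fibre relaxes quickly. Slow fibres use other isoforms of most of these proteins. Tpm1 is also the tropomyosin of heart muscle, so it is not specific to fast fibres.

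Each sedentary library held 50928458 to 70774311 counts in total, each exercise library 54851831 to 77628546, and each library labelled CD47-KO 76005277 to 84364189. The 10 genes took 9.28% to 14.5%, 12.0% to 14.9% and 7.33% to 9.81% of these counts, and the lowest single count of any of them was 88109, so counting error was small beside the spread between libraries. Cd47 itself lay between 11.4 and 16.4 CPM (counts scaled to library size, with trimmed mean of M-values, TMM, factors) in sedentary libraries and between 11.48 and 12.1 CPM in those labelled CD47-KO (log2 fold change −0.26, SE 0.17, edgeR quasi-likelihood test with Benjamini-Hochberg adjusted p = 0.295). The deleted part of the gene is not given, so this value does not check the label. Libraries numbered 1 to 3 and those numbered 4 to 6 of the sedentary and exercise groups lay apart, and no label names these sets. Mitochondrially encoded genes took 4.77% to 18.2% of sedentary, 4.49% to 12.5% of exercise and 18.1% to 19.2% of CD47-KO counts. Markers of skeletal fibres in general summed to 107514 to 192093 CPM in sedentary, 121235 to 218773 CPM in exercise and 91175 to 124754 CPM in CD47-KO libraries. Of these 7 markers 3 (Acta1, Des and Ckm) were lower and 1 (Neb) was higher in CD47-KO libraries than in sedentary ones by the edgeR test. Sedentary library 1 had the highest summed levels in its group of tendon and cartilage markers (433 CPM, group range 9.50 to 433), cardiac markers (293 CPM, 14.6 to 293) and fibroblast markers (603 CPM, 100 to 603). None of the marker genes searched was at 0 in all libraries, which held for every gene of the table. In CD47-KO libraries these sums were 29.9 to 43.4, 6.17 to 42.7 and 273 to 322 CPM. The highest cardiac sum was nearly all Myh6. In sedentary libraries Myh6 reached 285 CPM, Tnnt2 8.10 CPM, Nppa 0.646 CPM and Tnni3 0.237 CPM. Of the 4 fibroblast markers, Dcn (log2 fold change 1.39, edgeR adjusted p = 0.00142) and Pdgfra (0.91, edgeR adjusted p = 0.0237) were higher in CD47-KO libraries than in sedentary ones. The others, Col1a1 (−2.30, edgeR adjusted p = 0.159) and Col3a1 (−0.75, edgeR adjusted p = 0.456), were below 0 and did not pass. Of 4 macrophage markers 1 was higher, Mrc1 (1.68, edgeR adjusted p = 0.0246), while Cd68 (−0.75), Adgre1 (0.87) and Csf1r (0.026) did not pass. The same test called 8.75% of all genes lower and 11.9% higher. With an offset for GC content in the edgeR fit, Pdgfra was still called (0.82, adjusted p = 0.0472), but not Dcn (−0.31, adjusted p = 0.640) or Mrc1 (0.94, adjusted p = 0.288). The part of these markers in the results was not tested.

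RefSeq's promoter table for GRCm38.p6 held windows of 300 bases, from 250 before to 50 after the start of transcription, for 7 of the 10 genes. Tnnt3, Tnni2 and Actn3 were not searched. Printed here are those of Mylpf (chr7:127211358-127211657, plus strand) and Casq1 (chr1:172219846-172220145, minus strand), which were lower in CD47-KO libraries against both other groups, with Myl1 (chr1:66945007-66945306, minus strand), the light chain that did not pass the test, and with the upstream window of Pvalb (chr15:78206351-78206650, minus strand), which held another motif. Each is written 5′ to 3′ on the strand of the gene, with motif matches in capitals.
Mylpf: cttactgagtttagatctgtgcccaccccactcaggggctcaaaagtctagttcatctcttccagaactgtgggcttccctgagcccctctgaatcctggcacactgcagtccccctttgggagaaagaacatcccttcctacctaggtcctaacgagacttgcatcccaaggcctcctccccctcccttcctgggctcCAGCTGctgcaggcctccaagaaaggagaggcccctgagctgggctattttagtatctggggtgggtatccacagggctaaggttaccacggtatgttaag
Casq1: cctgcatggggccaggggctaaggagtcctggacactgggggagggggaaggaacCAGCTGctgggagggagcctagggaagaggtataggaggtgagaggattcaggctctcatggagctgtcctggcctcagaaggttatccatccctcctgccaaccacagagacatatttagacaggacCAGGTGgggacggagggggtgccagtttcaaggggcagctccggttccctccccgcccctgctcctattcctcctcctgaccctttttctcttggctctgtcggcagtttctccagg
Myl1: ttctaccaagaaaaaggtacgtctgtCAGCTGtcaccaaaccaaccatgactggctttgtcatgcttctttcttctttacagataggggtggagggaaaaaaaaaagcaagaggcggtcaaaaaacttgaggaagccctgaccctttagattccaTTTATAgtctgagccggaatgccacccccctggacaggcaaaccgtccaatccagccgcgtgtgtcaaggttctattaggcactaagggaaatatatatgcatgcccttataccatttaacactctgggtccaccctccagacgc
Pvalb: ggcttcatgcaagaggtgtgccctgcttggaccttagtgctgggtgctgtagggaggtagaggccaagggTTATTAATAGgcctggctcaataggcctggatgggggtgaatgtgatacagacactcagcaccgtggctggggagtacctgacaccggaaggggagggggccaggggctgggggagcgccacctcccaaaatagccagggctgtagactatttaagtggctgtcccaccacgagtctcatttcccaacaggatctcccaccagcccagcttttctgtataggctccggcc
The capitals mark matches, on either strand, to the E-box of myogenic factors (searched as CANNTG), to the TATA box (TATAAA) and to the MEF2 site. All 7 genes with a window held at least 1 E-box, but so did 72.3% of all 32851 windows of the table. The 7 genes had 8 windows, and the upstream window of Pvalb held no E-box. All shares given here are of windows and not of genes. Counted from the start, the E-box of Mylpf lay from −51 to −46, those of Casq1 from −195 to −190 and from −67 to −62, and that of Myl1 from −224 to −219. A TATA box stood in Myl1 alone among the 7 (−95 to −90, reverse strand), against 13.6% of all windows. A MEF2 site stood in Pvalb alone (−180 to −171 in the upstream window), against 3.19% of all windows. The MEF3 core TCAGGTT (4.07% of windows) and the CArG box (1.63%) were in none of the 7. These matches are descriptions of the letters in the windows, and no measure of binding was available for them.

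Levels of different genes were compared per kilobase of the longest annotated transcript. In the sedentary group Tnnt3 was highest, at 18993 ± 4676 CPM per kb (SD, n = 6), followed by Tnnc2 at 15304 ± 8874 and Mylpf at 13818 ± 3455. Atp2a1 (10003 ± 3446), Tnni2 (9661 ± 7068), Pvalb (9117 ± 3260), Myl1 (6884 ± 3102) and Tpm1 (6658 ± 1616) came next, and Actn3 (4016 ± 1194) and Casq1 (1333 ± 299) were lowest. The steps from Mylpf to Atp2a1, from Tpm1 to Actn3 and from Actn3 to Casq1 were larger than either SD, and the other steps between neighbours were not. In CD47-KO libraries Mylpf, at 4630.3 ± 423 CPM per kb (SD, n = 3), lay below Tnnt3 (14126), Tnnc2 (8674), Atp2a1 (6173), Tnni2 (5677) and Pvalb (4956), and was close to Myl1 (4428) and Tpm1 (4282).

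**Figure D1:**
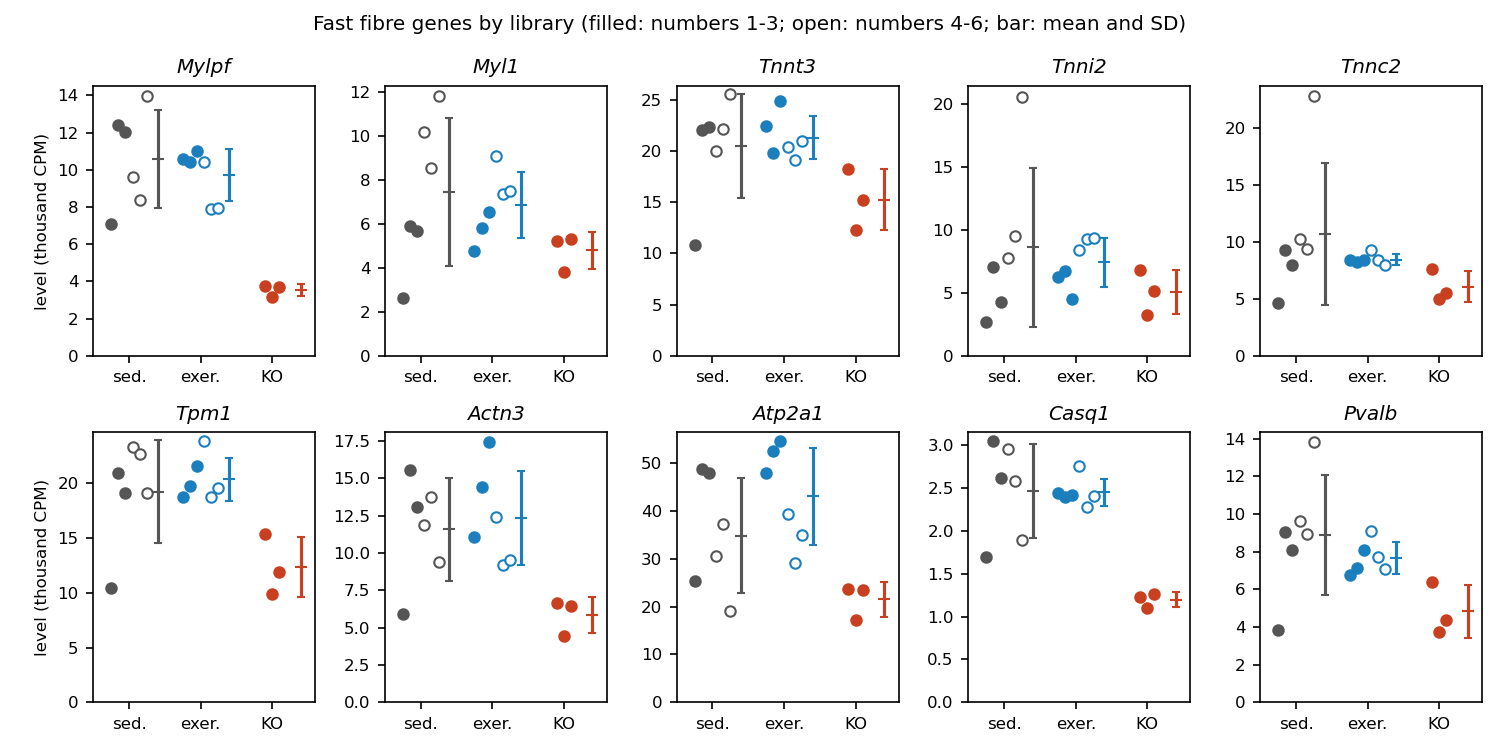
CPM of each of the 10 genes in every library, by group. Points are libraries, filled for numbers 1 to 3 and open for 4 to 6, and bars are the group mean and SD. Mylpf and Casq1 lie below all sedentary and exercise values in the 3 CD47-KO libraries.

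The regulatory light chain Mylpf (chromosome 7, 127208890 to 127214298, plus strand, in gene models of GRCm38, as for all positions that follow) had the largest fold change of the 10 genes. Its lowest, median and highest values were 7076, 10822.5 and 13962 CPM in the sedentary group and 7898, 10409.9 and 11006 CPM in the exercise group, and its 3 values in CD47-KO libraries were 3753, 3174 and 3714 CPM. The CD47-KO values lay below every sedentary and exercise value, at 33.5% of the fitted sedentary level. The log2 fold change against sedentary was −1.58 (SE 0.25, edgeR adjusted p = 0.000477) and against exercise −1.45 (SE 0.25, edgeR adjusted p = 0.000715). In bulk RNA, fewer fast fibres and less of these RNAs per fibre cannot be told apart.

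Its partner, the alkali light chain Myl1 (chromosome 1, 66924295 to 66945404, minus strand), did not pass the test. The sedentary libraries ran from 2617 through a median of 7224 to 11797 CPM, the exercise libraries from 4786 through 6948 to 9062 CPM, and the CD47-KO libraries gave 5239, 3825 and 5308 CPM. These values overlapped. Against sedentary the log2 fold change was −0.64 (SE 0.37, edgeR adjusted p = 0.244), and against exercise it was −0.51 (SE 0.36, edgeR adjusted p = 0.356). The ratio of Mylpf to Myl1 per kilobase was 2.97 to 3.82 in sedentary libraries 1 to 3, 1.33 to 1.67 in sedentary libraries 4 to 6, 2.38 to 3.12 and 1.497 to 1.62 in the same sets of exercise libraries, and 0.988 to 1.17 in CD47-KO libraries. Sedentary and exercise libraries 1 to 3 did not overlap libraries 4 to 6 in this ratio, and the CD47-KO libraries lay below all others. The ratio was not tested.

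Among the thin filament and Z-disc genes, Actn3 passed the test and the troponins and tropomyosin did not. Actn3, the fast-fibre alpha-actinin (chromosome 19, 4861216 to 4877909, minus strand), had 5935, 12491 and 15537 CPM as lowest, median and highest sedentary values and 9192, 11742 and 17414 CPM as exercise values. Its CD47-KO values were 6631, 4449 and 6479 CPM. They lay below all exercise values, but sedentary library 1, at 5935 CPM, overlapped them. The log2 fold change against sedentary was −0.99 (SE 0.31, edgeR adjusted p = 0.0325) and against exercise −1.08 (SE 0.31, edgeR adjusted p = 0.0212).

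The troponins, which make the thin filament respond to calcium, had wide sedentary ranges. Troponin T, Tnnt3 (chromosome 7, 142498836 to 142516009, plus strand), ran from 10864 to 25587 CPM in sedentary and from 19136 to 24864 CPM in exercise libraries, with 18270.3, 12289 and 15166 CPM in CD47-KO libraries. Troponin I, Tnni2 (chromosome 7, 142441808 to 142444410, plus strand), ran from 2682 to 20545 CPM and from 4534 to 9346 CPM, with 6831, 3281 and 5132 CPM. Troponin C, Tnnc2 (chromosome 2, 164777161 to 164779967, minus strand), ran from 4638 to 22735.5 CPM and from 7939 to 9298 CPM, with 7645.5, 5015 and 5555 CPM. All overlapped the sedentary values, while the CD47-KO values of Tnnt3 and Tnnc2 lay below every exercise value. The log2 fold changes against sedentary were −0.43 (SE 0.25) for Tnnt3, −0.77 (SE 0.49) for Tnni2 and −0.82 (SE 0.36) for Tnnc2, with edgeR adjusted p of 0.257, 0.298 and 0.124. Against exercise they were −0.48, −0.55 and −0.47, with edgeR adjusted p of 0.200, 0.470 and 0.388. Tpm1 (chromosome 9, 67022590 to 67049406, minus strand), which blocks myosin binding sites at rest, ran from 10400.6 to 23286 CPM in sedentary and from 18699.6 to 23839.8 CPM in exercise libraries, and was 15342, 9919.8 and 11866 CPM in CD47-KO libraries (log2 fold change against sedentary −0.64, SE 0.25, edgeR adjusted p = 0.0883). All 3 CD47-KO values of Tpm1 lay below the exercise values, and the log2 fold change against exercise was −0.72 (SE 0.26, edgeR adjusted p = 0.0574).

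Of the calcium genes, Casq1 (chromosome 1, 172209894 to 172219868, minus strand), which binds calcium in the store, passed the test against both other groups. Its sedentary values were 1693, 2593 and 3045 CPM (lowest, median, highest), its exercise values 2279, 2406 and 2753 CPM, and its CD47-KO values 1221, 1099 and 1266 CPM. The CD47-KO libraries lay below all others, at 48.6% of the fitted sedentary level. The log2 fold changes were −1.04 against sedentary (SE 0.22, edgeR adjusted p = 0.00292) and −1.03 against exercise (SE 0.22, edgeR adjusted p = 0.00286).

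The calcium pump gene Atp2a1 (chromosome 7, 126445858 to 126463108, minus strand) had 19146, 33864 and 48629 CPM as lowest, median and highest sedentary values, 29130.2, 43518 and 54428 CPM as exercise values, and 23726, 17182 and 23481 CPM in CD47-KO libraries. The CD47-KO libraries lay below all exercise libraries but not below sedentary library 6, which held the lowest sedentary value. Against exercise the log2 fold change was −1.002 (SE 0.32, edgeR adjusted p = 0.0355), and against sedentary it was −0.70 (SE 0.32, edgeR adjusted p = 0.132). Pvalb (chromosome 15, 78191114 to 78206400, minus strand) ran from 3872 to 13815 CPM in sedentary and from 6776 to 9127 CPM in exercise libraries, and was 6421, 3713 and 4392 CPM in CD47-KO libraries. Its log2 fold change of −0.88 against sedentary missed the threshold (SE 0.31, edgeR adjusted p = 0.0553), as did that of −0.66 against exercise (SE 0.31, edgeR adjusted p = 0.144).

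Against sedentary, then, 3 of the 10 genes fell in CD47-KO libraries (Mylpf, Casq1 and Actn3) and 0 rose, where 8.75% of the 17975 genes tested were called lower and 11.9% higher by the same edgeR test. All 10 fold changes were below 0, with a median of −0.79 on the log2 scale against −0.11 over all genes tested. Against exercise, 4 of 10 fell (the same 3 and Atp2a1), where 8.34% of genes were called lower and 12.2% higher, with a median of −0.69 against −0.077 over all genes. Both comparisons use the same CD47-KO libraries. The CD47-KO values lay wholly below the sedentary ones for 2 of the 10 genes (10.3% of all genes tested) and wholly below the exercise ones for 8 of the 10 (14.1%).

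The fold changes moved with base composition. The log2 fold changes of CD47-KO against sedentary fell with the GC content of the transcript across 17910 genes (Spearman's rho −0.555), and the 10 genes ran from 48.9% to 56.9% GC with 7 above the median of 49.7%. With a GC offset in the edgeR fit, Mylpf (−1.29, adjusted p = 0.00695) and Casq1 (−0.80, adjusted p = 0.0408) stayed lower against sedentary, where 4.64% of genes were called lower. Actn3 had −0.55 (edgeR adjusted p = 0.358). Against exercise Mylpf alone was called with the offset (−1.13, edgeR adjusted p = 0.0129, 4.57% of genes lower), Casq1 had −0.77 (edgeR adjusted p = 0.05005) and Atp2a1 −0.57 (edgeR adjusted p = 0.315). GC content and genotype cannot be told apart here, since all CD47-KO libraries share both. Mitochondrially encoded genes took 18.1% to 19.2% of counts in CD47-KO libraries, above every other library except sedentary library 6 (18.2%). With those genes left out of the fit, 3 and 4 of 10 were lower, where 7.01% and 6.12% of all genes were. The part of this share in the results was not tested.

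**Figure D2:**
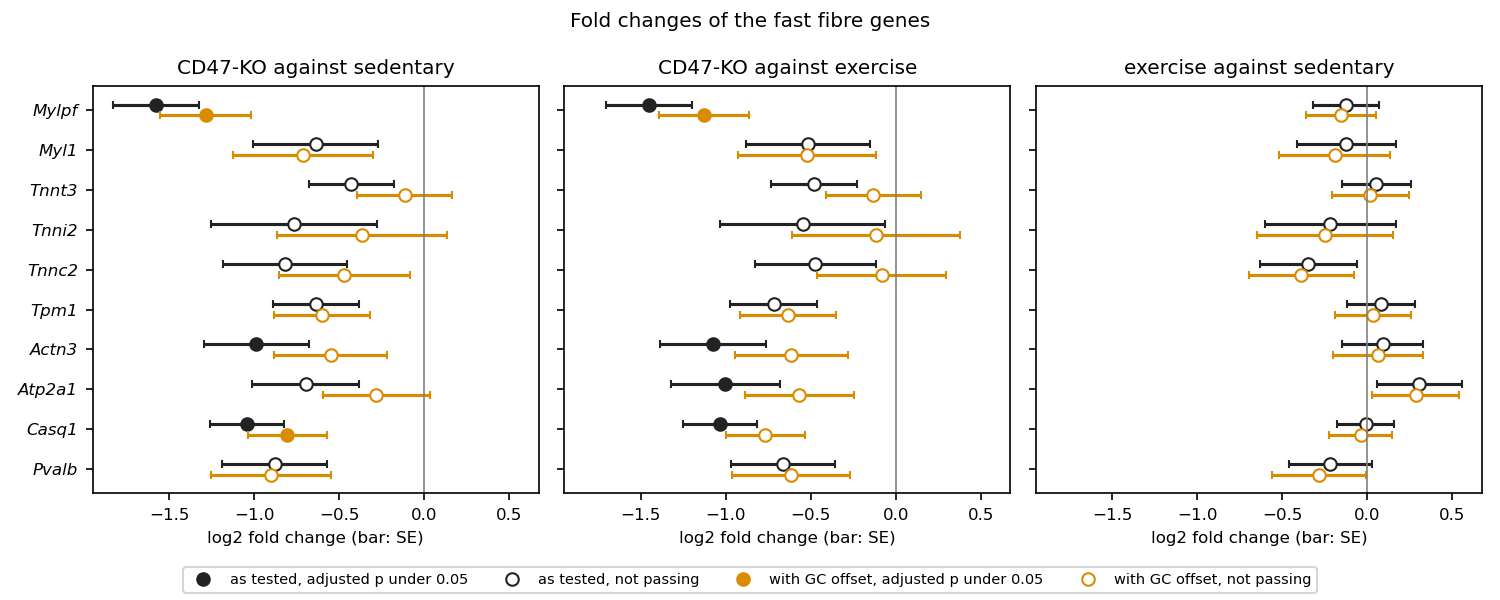
The log2 fold change of each gene in the 3 comparisons of groups, in black as tested and in orange with a GC offset, with bars for the standard error and filled points for an adjusted p under 0.05. Mylpf lies farthest below 0 in both comparisons with CD47-KO libraries (−1.58 and −1.45), and exercise against sedentary has no filled point.

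The count of lower genes depended on single libraries. Sedentary library 1 was the lowest of its group for 9 of the 10 genes, and sedentary library 6 the highest for 6 of them. Without sedentary library 1, 8 of 10 genes were lower in CD47-KO libraries than in sedentary ones (all but Tnni2 and Atp2a1), where 10.7% of all genes tested were, and without sedentary libraries 1 and 6, 7 of 10 were, where 8.64% were. With sedentary libraries 4 to 6 alone, 8 of 10 were lower (12.0% of all genes), and with sedentary libraries 1 to 3 alone, 2 were (8.54% of all genes; Mylpf −1.49 and Casq1 −0.96, edgeR adjusted p = 0.000909 and 0.00578). Leaving out any 1 library left Mylpf and Casq1 called in both comparisons, with the other calls less stable. Actn3 was not called against sedentary without sedentary library 2, 3, 4 or 5, exercise library 4 or any 1 CD47-KO library. Against exercise, 6 of 10 genes were lower without sedentary library 1 (11.2% of all genes), and 2 without any 1 CD47-KO library (3.39% to 4.0% of all genes), when neither Actn3 nor Atp2a1 was called. Atp2a1 also lost its call against exercise without sedentary library 4 or 5 or exercise library 1, 2, 3, 4 or 6. CD47-KO library 2 was the lowest of its 3 for all 10 genes.

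No difference between exercise and sedentary libraries was detected for the 10 genes. In edgeR 0 of 10 passed the adjusted threshold and 0 had an unadjusted p under 0.05. Over all 17975 genes 0 passed and 665 had an unadjusted p under 0.05, while DESeq2 called 9 genes and limma-voom 0, none of them among the 10. The log2 fold changes ran from −0.35 for Tnnc2 (SE 0.29) to 0.31 for Atp2a1 (SE 0.25), with 6 below 0 and 4 above, a median of −0.066 against −0.032 over all genes, and −0.12 for Mylpf (SE 0.19) and −0.0091 for Casq1 (SE 0.17). The exercise values overlapped the sedentary values for all 10 genes, and over all genes 0.0612% lay wholly below and 0.100% wholly above.

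The direction of exercise values differed between library sets without passing a test. In libraries 1 to 3 alone the median log2 fold change of the 10 genes was 0.25, and in libraries 4 to 6 alone it was −0.25. The difference of both effects, tested as an interaction, was below 0 for 9 of 10 genes (median −0.46, against −0.003 over all genes), and none passed, with Tnnc2 farthest from 0 (−0.91, SE 0.47, edgeR adjusted p = 0.868). Single sedentary libraries stood apart within the sets. Tnnc2 was 4638 CPM in sedentary library 1, with 9318 and 7962 CPM in libraries 2 and 3. It was 22735.5 CPM in sedentary library 6, with 10244 and 9379 CPM in libraries 4 and 5. Sedentary library 1 was the lowest of its group for 9 genes and library 6 the highest for 6. How much of the difference came from these libraries was not tested. Over all genes edgeR called 0, with 1035 at an unadjusted p under 0.05, and DESeq2 called 26, none among the 10.

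The sets themselves differed in which genes were high. Myl1 ran from 2617 to 6528 CPM in sedentary and exercise libraries 1 to 3 and from 7368 to 11797 CPM in libraries 4 to 6, a difference in mean log2 level of 0.84. Tnni2 ran from 2682 to 7049.65 CPM in libraries 1 to 3 and from 7809 to 20545 CPM in libraries 4 to 6, a difference of 1.03. These 2 of the 10 genes did not overlap between sets, where 8.47% of all genes were wholly higher in libraries 4 to 6. Atp2a1 differed in the other direction, by −0.53, and Casq1 by 0.032. The CD47-KO libraries, numbered 1 to 3, had Myl1 (3825 to 5308 CPM) and Tnni2 (3281 to 6831 CPM) within the range of libraries 1 to 3 of the others. Their Atp2a1 values (17182 to 23726 CPM) lay below that range (25406 to 54428 CPM), as did those of Casq1 (1099 to 1266 CPM, against 1693 to 3045 CPM). Set against libraries 4 to 6, their Atp2a1 values overlapped (19146 to 39294 CPM). Their Casq1 values lay below those libraries (1896 to 2948 CPM), as did their Myl1 and Tnni2 values. No label places the CD47-KO libraries in either set.

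**Figure D3:**
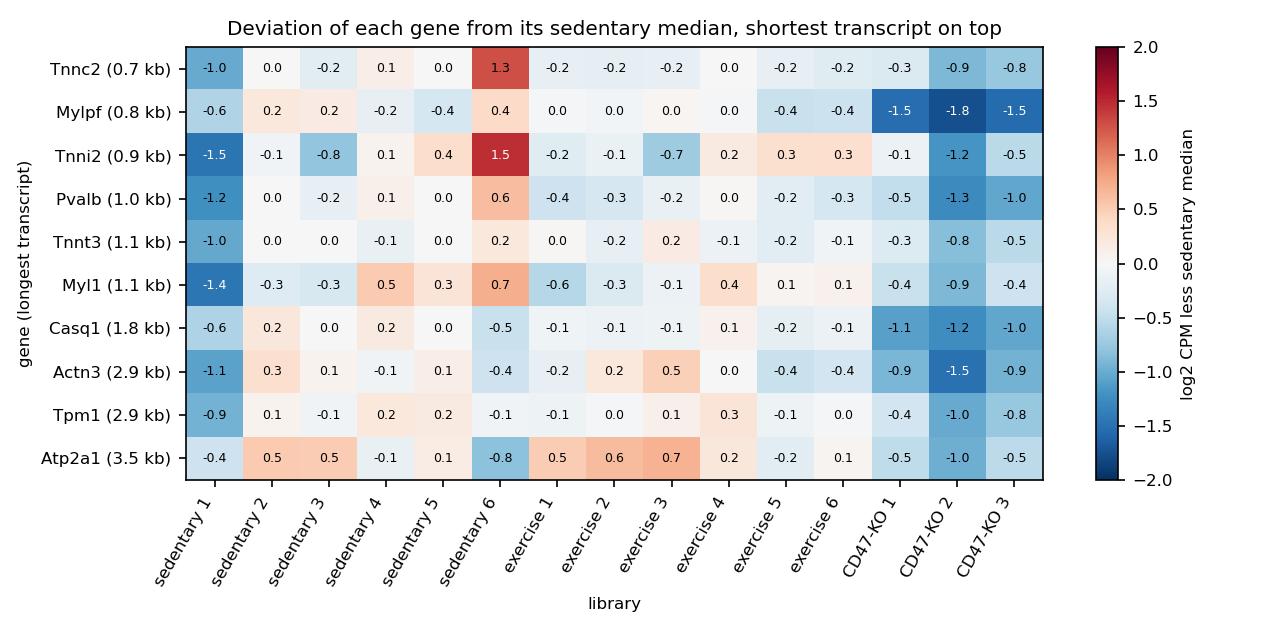
Difference of each gene's log2 CPM in each library (columns) from its median over sedentary libraries, with genes (rows) ordered from the shortest transcript at the top. Sedentary library 1 and the 3 CD47-KO libraries are below 0 for all 10 genes, and sedentary library 6 is high for Tnni2 (1.47) and low for Atp2a1 (−0.82).

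Across the 15 libraries the 10 genes mostly moved together. The Pearson correlation of log2 CPM over their 45 pairs ran from −0.051 to 0.93 with a median of 0.73, and over the 12 sedentary and exercise libraries from −0.43 to 0.92 with a median of 0.55. Tnnc2 and Pvalb formed the most alike pair (0.93), and Tnni2 and Atp2a1 the least alike (−0.051). In sedentary library 6 the deviation from the sedentary median fell with transcript length over the 10 genes (Spearman's rho −0.81), from 1.47 for Tnni2 (895 bases) to −0.82 for Atp2a1 (3477 bases), and in exercise library 3 it rose with length (0.73). In the other libraries this correlation ran from −0.25 to 0.62. These are correlations over genes or libraries that share depth and base composition, and are given as descriptions.

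The genes whose pattern over 15 libraries was most like the mean of the 10, of 2768 with a mean log2 CPM of at least 5, were Ckm (creatine kinase of muscle, Pearson r 0.987), Myoz1 (Z-disc myozenin, 0.959), Eri3 (0.956), Cib2 (0.950) and Ldha (lactate dehydrogenase, 0.943). Only Ckm and Myoz1 were among the 5 most alike over the 12 sedentary and exercise libraries, and only Ckm and Eri3 by Spearman's rho. The ranking is a description of these libraries, which share depth and base composition.

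Slow-fibre isoforms were set beside 9 of the 10 genes (Pvalb has none) as a log2 ratio of levels per kilobase in each library. Actn2, the partner of Actn3, is found in all fibre types. Summed over the 9 pairs, slow isoforms made up 20.4% of the total in sedentary library 1, 9.77% in CD47-KO library 2 and 0.221% in exercise library 3, and between 1.31% and 4.76% in the other 12. The median log2 ratio of the 9 pairs was 2.24 in sedentary library 1 and between 4.58 and 6.89 in the other sedentary libraries. It was 11.08 in exercise library 3 and between 5.67 and 7.03 in the other exercise libraries, and 6.07, 3.17 and 6.50 in the CD47-KO libraries. The difference of group means, as the median over pairs, was −0.20 for CD47-KO less sedentary, with a range of −0.80 to 0.82 when 1 library was left out, so its sign depended on single libraries. It was 1.56 for exercise less sedentary (0.85 to 1.85) and −1.40 for CD47-KO less exercise (−2.03 to −0.38), and the median SD of a ratio over sedentary libraries was 1.75. Sedentary library 1 and exercise library 3 lay at opposite ends of these ratios, and no value was computed without both of them. No test was made of these ratios. Of the 9 slow isoforms themselves, 0 passed the edgeR test in any of the 3 comparisons, with medians of −0.96, −1.55 and 0.51 on the log2 scale.

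**Figure D4:**
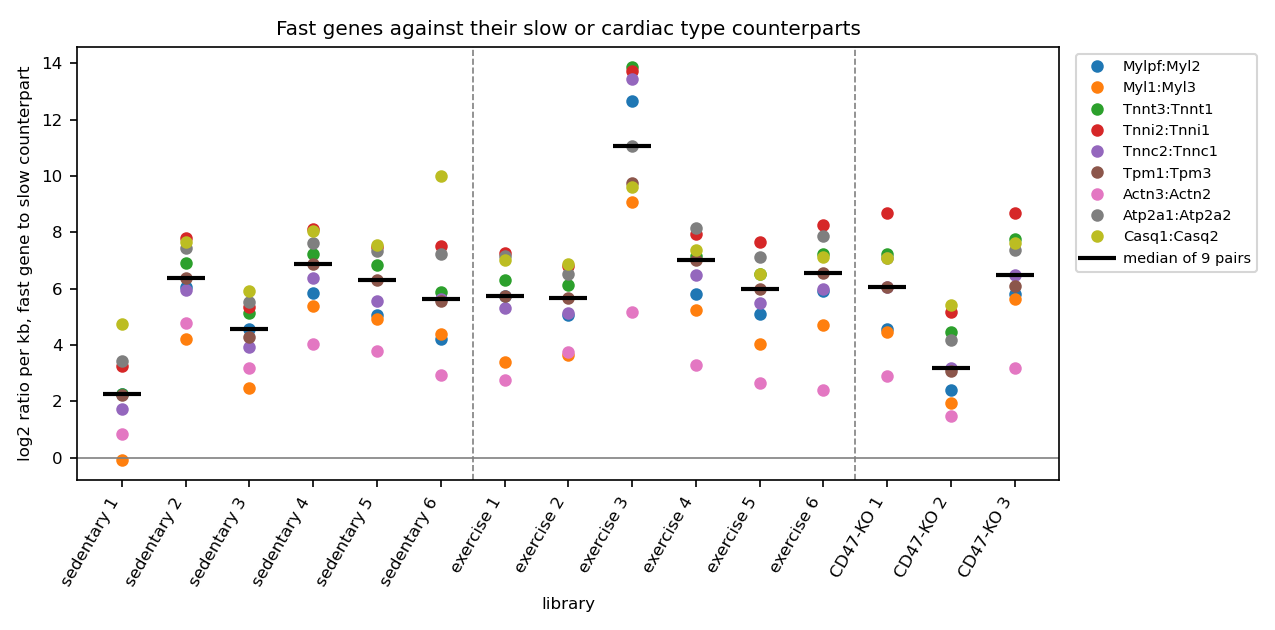
log2 ratio of each fast gene to its slow-fibre counterpart, per kilobase, in every library. Coloured points are the 9 pairs and black bars their median. Exercise library 3 has the highest median (11.08) and sedentary library 1 the lowest (2.24).

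Other fast-fibre genes fell in part. Of 18 listed, 6 were lower and 0 higher in CD47-KO libraries than in sedentary ones (7 and 0 against exercise), where 8.75% of all genes were lower and 11.9% higher (8.34% and 12.2% against exercise). Their median log2 fold change against sedentary was −0.53, and 0 were lower with the GC offset (1 higher). The higher gene was Myh1, a fast myosin heavy chain (1.28, edgeR adjusted p = 0.0321 with the offset). Without the offset Myh1 had 0.997 (edgeR adjusted p = 0.0506) and did not pass. The heavy chains Myh4 (−0.26) and Myh2 (−0.073) did not pass either. Pgam2, phosphoglycerate mutase of muscle, had −1.29 (SE 0.31), Eno3, the muscle enolase, −1.08 (SE 0.24), Myoz1 −0.98 (SE 0.29) and Ckm −0.92 (SE 0.26), with edgeR adjusted p of 0.00726, 0.00422, 0.0245 and 0.0179. Ckm lay at 28684 ± 7185 CPM in 6 sedentary libraries and 15129 ± 2732 CPM in 3 CD47-KO libraries (SD).

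Among 14 transcription factors and cofactors linked to the fast programme, 3 were higher and 2 lower against sedentary (2 and 1 against exercise), beside 11.9% of all genes higher and 8.75% lower against sedentary. Eya4, a transcriptional cofactor, had a log2 fold change of 2.03 (SE 0.40, edgeR adjusted p = 0.0019), Six4 1.54 (SE 0.40, edgeR adjusted p = 0.0115), Klf15 0.89 (SE 0.25, edgeR adjusted p = 0.0198) and Mafa −1.22 (SE 0.41, edgeR adjusted p = 0.0425). With the GC offset Klf15 alone of the 14 was called against sedentary. Eya4 lay at 16.7 ± 8.31 CPM in sedentary and 68.2 ± 16.1 CPM in CD47-KO libraries, with no overlap between them.

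Of 17 genes of the sarcoplasmic reticulum and triad, 1 was higher and 3 were lower against sedentary (2 and 3 against exercise), beside the same 11.9% and 8.75% of all genes. Trdn, which anchors calsequestrin to the release channel, went from 132 ± 75.4 CPM in 6 sedentary to 1607 ± 163 CPM in 3 CD47-KO libraries (SD, log2 fold change 3.61, SE 0.45, edgeR adjusted p = 8.37e-05), and it was called with the GC offset as well (2.05, edgeR adjusted p = 0.000397). Casq1, its binding partner, was lower in the same libraries. Jsrp1 (−1.22), Cacnb1, a subunit of the voltage sensor (−0.82), and Fkbp1a, which binds the release channel (−0.81), were lower with edgeR adjusted p of 0.0163, 0.00232 and 0.0324, and none of the 17 was lower with the GC offset. Of 10 thin filament and Z-disc genes common to fibre types, 1 was higher and 2 lower in both comparisons, beside those shares of all genes. With lists this small, nothing was read from the difference between these 3 counts and the shares of all genes. Acta1, the skeletal muscle actin, had −0.98 (SE 0.21, edgeR adjusted p = 0.00313), Capzb −0.62 (SE 0.19, edgeR adjusted p = 0.0297) and Neb, the giant protein that spans the thin filament, 1.16 (SE 0.31, edgeR adjusted p = 0.0133), and with the GC offset 0 of these 10 were called against sedentary and Neb against exercise (1.35, edgeR adjusted p = 0.0083). Exercise against sedentary called 0 genes in every one of these lists, all of which were chosen with earlier results of these data known.

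Genes on the opposite strand overlapped exons of 3 of the 10: Ube2c shares 592 bases with Tnnc2, Rabep2 763 bases with Atp2a1 and Gm17224 156 bases with Casq1 in the annotation. The counting's strand setting is not given in the sources used here, so reads of both partners cannot be told apart there. Counts of Rabep2 were 3.42% to 3.93% of those of Atp2a1 in sedentary libraries 1 to 3 and 1.11% to 1.32% in sedentary libraries 4 to 6, 3.44% to 3.64% and 1.42% to 1.52% in the same sets of exercise libraries, and 2.55% to 3.13% in CD47-KO libraries. The sets did not overlap, and the CD47-KO libraries lay between them. Counts of Ube2c were 0.575% to 0.860% of those of Tnnc2 in sedentary libraries 1 to 3 and 0.0929% to 0.124% in sedentary libraries 4 to 6. They were 0.514% to 0.574% and 0.194% to 0.344% in the same sets of exercise libraries. In CD47-KO libraries they were 0.156% to 0.199%, which overlapped exercise libraries 4 to 6. Gm17224 lay at 1.16 CPM or less in every library, far below Casq1.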

How the data were processed

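Gene counts of 15 libraries were deposited by the authors as 1 table of whole numbers, not normalized. Each of its 22798 gene symbols had at least 1 count over all libraries. Whether genes without counts were removed before deposit is not known. Reads were trimmed with Trimmomatic 0.30, aligned with HISAT2 2.0.1 to GRCm38 and counted with HTSeq 0.6.1, per the submitters' processing notes; libraries were made from total RNA with a NEBNext Ultra kit, per the labels' protocols. The annotation and strand setting are not given in the sources used here. In each library 32.1% to 50.2% of values from 1 to 15 were 4, 8 or 12, which is more than evenly spread counts would give; the cause was not tested.

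Counts were tested with edgeR 4.0.16 in R 4.3.3 (filterByExpr, TMM factors, robust quasi-likelihood fit of all 15 libraries in 1 model), with Benjamini-Hochberg adjustment over the 17975 genes tested and a threshold of 0.05. CPM values use the TMM factors. The contrasts were CD47-KO less sedentary, exercise less sedentary, CD47-KO less exercise, and the exercise effect in libraries 4 to 6 less that in libraries 1 to 3. Alternatives used DESeq2 1.42.0, limma 3.58.1 (voom), RLE factors, other filters, an offset from a lowess curve (span 0.3) on GC content or also length, subsets of libraries and each library left out. The script was tested on simulated data. Lengths, GC content and overlaps came from GENCODE gene models of GRCm38, in which 22711 of 22798 symbols matched once.

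Replicate numbers come from the titles; exercise libraries 4, 5 and 6 carry the numbers 6, 7 and 8 in the table and descriptions. Deviations from the group means correlated at 0.19 to 0.36 between sedentary and exercise libraries of the same number, over 0.1 in every pair, with a median (0.262) no higher than for other numbers of the same set (0.265). By the rule of 0.1 the numbers paired these groups, though these values do not separate a pair from its set, and not the CD47-KO libraries (−0.10 to 0.15). The main fit was unpaired, without a block for the numbers, which entered only alternative fits. No 2 libraries of a group agreed within sampling noise.

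The 10 genes and all gene lists were chosen with earlier results of these data known. Genes named beside the 10 are their slow-fibre counterparts, up to 4 genes of each list with the smallest p in CD47-KO against sedentary, and the 5 genes most correlated with the mean of the 10. Marker genes and the myosin heavy chains among the other fast-fibre genes are named as well.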

Additional observations from a re-analysis of the deposited data

Results flagged for a closer look

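In groups of 6 libraries, 12 of the 38 sets of values examined held 1 library set apart from the others by more than Dixon's 95% critical value, where chance gives about 1 set in 20. The sets are not independent, since genes share libraries.

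Tnnc2 was 22735.5 CPM in sedentary library 6, with the other 5 between 4638 and 10244 CPM, and Tpm1 was 10400.6 CPM in sedentary library 1, with the others between 19065 and 23286 CPM. In exercise library 4 Tnnc2 was 9298 CPM (others 7939 to 8385) and Casq1 2753 CPM (others 2279 to 2443).

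Exercise library 3 stood apart in 8 of 9 log2 ratios of fast to slow isoforms: 12.65 for Mylpf to Myl2, 9.06 for Myl1 to Myl3, 13.88 for Tnnt3 to Tnnt1, 13.74 for Tnni2 to Tnni1, 13.435 for Tnnc2 to Tnnc1, 9.74 for Tpm1 to Tpm3, 11.08 for Atp2a1 to Atp2a2 and 9.63 for Casq1 to Casq2. In the other 5 exercise libraries these ratios ran from 3.40 (Myl1 to Myl3) to 8.25 (Tnni2 to Tnni1). The slow isoforms were low in that library, with Tnnc1 at 0.779 CPM and Tnni1 at 0.799 CPM, while among the 10 genes it held the lowest exercise value of Tnni2 (4534 CPM) and the highest of Atp2a1 (54428 CPM).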

How the results depend on the processing

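Mylpf was lower with an adjusted p under 0.05 in all 30 alternatives against sedentary and all 29 against exercise, Casq1 in 28 and 26, Actn3 in 16 and 22, and Atp2a1 against exercise in 14. The count of lower genes against sedentary (3 of 10) was 5 with DESeq2 (12.7% of all genes lower, against 8.75%), 1 with a GC and length offset (4.91%), 8 with sedentary libraries 4 to 6 alone, 7 without sedentary libraries 1 and 6 (added after seeing the data) and 2 to 8 with 1 library left out (3.23% to 10.7%). Against exercise (4 of 10) it was 1 with the GC offset (4.57%, against 8.34%), 1 with the GC and length offset (5.22%), 2 with exercise libraries 4 to 6 alone (6.34%) and 2 to 6 with 1 library left out (3.39% to 11.2%). With the replicate block, which puts CD47-KO libraries 1 to 3 in the blocks of the other libraries 1 to 3 although their deviations did not pair them, 4 were lower in each comparison (12.0% and 12.7% of all genes). The block added Atp2a1 against sedentary (−0.90, edgeR adjusted p = 0.0392), which was called in 2 of the 30 alternatives of that comparison. Whether this call rests on that placing was not tested. With the block and GC offset together (added later) 1 was lower in each (6.18% and 6.91%). Exercise against sedentary and the interaction gave 0 of 10 in every alternative run, the block included. Signs of fold changes turned only for values that had not passed the test. With the GC and length offset, against sedentary, Tnnt3 was 0.031 and Tnnc2 0.025, against exercise Tnni2 was 0.0015 and Tnnc2 0.20, and Tpm1 was −0.015 for exercise against sedentary. With the block and GC offset, against sedentary, Tnnt3 was 0.034 and Tnni2 0.47, and against exercise Tnni2 was 0.49 and Tnnc2 0.19. With sedentary libraries 1 to 3 alone, Myl1 was 0.092 and Tnni2 0.19. For exercise against sedentary, limma-voom gave Tnni2 0.013 and Casq1 0.021, the replicate block gave Casq1 0.012, libraries 1 to 3 gave Mylpf 0.012, Myl1 0.26, Tnni2 0.31, Tnnc2 0.18 and Pvalb 0.059, libraries 4 to 6 gave Tnnt3 −0.18, Tpm1 −0.085 and Actn3 −0.19, and leaving out sedentary libraries 1 and 6 gave Tnnt3 −0.027, Tnni2 0.049, Tpm1 −0.082 and Actn3 −0.14. With 1 library left out these exercise values ran from −0.31 to 0.044 for Myl1, −0.083 to 0.11 for Tnnt3, −0.41 to 0.23 for Tnni2, −0.51 to 0.0068 for Tnnc2, −0.054 to 0.13 for Tpm1, −0.051 to 0.20 for Actn3 and −0.10 to 0.064 for Casq1. The causes of these moves were not tested. Each gene had 88109 counts or more in every library, so the errors rest on the spread between libraries, with 3 labelled CD47-KO.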
